A study of Mus musculus with 2 samples.

Results

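The genes described here are 44 mouse genes of homologous recombination, the Fanconi anemia pathway and the checkpoint that senses damaged DNA. They were chosen by gene name, with earlier results of these data known, and all 44 were found among the 34745 genes of the RNA-seq tables. The libraries were made from LSKs of the bone marrow (BM), the fraction without lineage markers but with Sca1 and c-Kit on its surface, which holds the hematopoietic stem and progenitor cells. The cells came from Scl/tTA-BCR/ABL (BA) mice on a C57BL/6 background, in which the Scl promoter drives the tetracycline transactivator in stem and progenitor cells and doxycycline keeps the BA transgene silent. The week-0 mice were on doxycycline and the week-3 mice had been off it for 3 weeks, both groups carried both transgenes, and their age is not given in the sources used here. Each time point was 1 library that pooled 3 mice, so the spread between mice is unknown, no p-value is given, and every comparison is between these 2 libraries.

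Homologous recombination repairs a broken chromosome by copying the intact sister. The broken ends are first trimmed to single strands, RPA coats these strands, and BRCA proteins then replace RPA with a recombinase that invades the sister. Fanconi proteins unhook crosslinked strands and hand the break to the same machinery, while the 9-1-1 clamp and the kinases Atr and Atm signal the damage to the cell cycle. Most of these genes are transcribed at low levels in resting stem cells and more in S phase, and the BA kinase is known for raising the load of DNA breaks in the cells that carry it.

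Reads on genes numbered 6356164 for week-0 and 3886695 for week-3, a ratio of 1.64. The BA transgene was not analysed here. The rows of mouse Bcr (371 and 108 reads) and Abl1 (395 and 144 reads) stand for the endogenous genes and do not check it. Of all genes, 12192 had at least 20 reads over both libraries and were compared, and all 44 members were among them, with 28 to 1633 reads each. The smallest level that 3 reads can show was 0.472 reads per 1000000 at week-0 and 0.772 at week-3. Levels are FPKM (fragments per kilobase of exons, scaled to the reads of the library), and a change is the log2 of FPKM at week-3 over FPKM at week-0. The 95% intervals are exact (Clopper-Pearson, from the reads of both libraries) and speak of counting error alone, because each time point is 1 library. If PCR copies of 1 molecule were counted as separate reads, the intervals are too narrow even for that. Whether such copies were removed is not given in the sources used here. A gene was called higher when its ratio was at least 2 and its interval lay above 1, and lower when its ratio was at most 0.5 with the interval below 1.

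Of the 44 members, 8 were called higher at week-3 and none was called lower. They were Mre11a, Dna2, Bard1, Xrcc3, Fancb, Rad1, Rad17 and Hus1. This is 18.2% of the members, beside 10.3% of all genes compared, and the 0 members called lower stand beside 14.6% of all genes. Among the 10445 genes with as many reads as the members, 10.3% were called higher as well. With no limit on the size of the ratio, the interval lay above 1 for 26 members, or 59.1%, beside 34% of all genes and 33.5% of genes with as many reads. It lay below 1 for none, beside 28.5% of all genes. The ratio itself was above 1 for 36 members, or 81.8%, beside 53.4% of all genes. The median log2 ratio of the members was 0.60 and that of all genes compared was 0.07. Together the members made up 0.0870% of the week-0 reads and 0.129% of the week-3 reads. The members' share of calls was thus above that of all genes in the higher direction, by counts that carry no measure of the spread between mice. The members were chosen with earlier results of these data known. Among the 8, Rad1, Rad17, Mre11a and Xrcc3 belong to a DNA damage network that the study built from genes higher in these libraries. The larger share is therefore not independent evidence of a change in these genes. When edgeR's exact test was run with an assumed biological coefficient of variation of 0.4, none of the 44 members was called higher, and 0.41% of all genes were. At an assumed 0.1, the number of members was again 8.

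**Figure D1:**
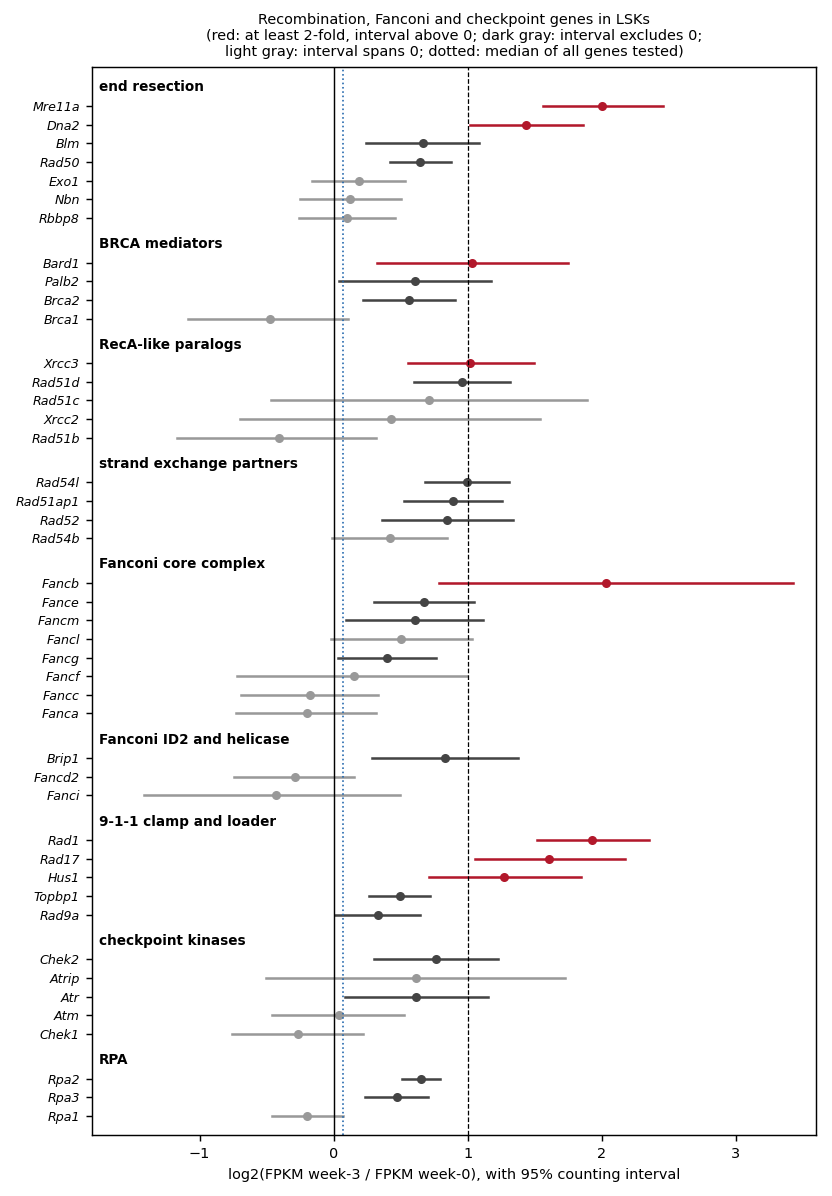
Log2 ratio of FPKM at week-3 over week-0 for each of the 44 genes (x axis), grouped by role, with bars for the 95% counting interval. The 8 genes in red were at least 2 times higher with the interval above 0, 26 intervals lie above 0 in all, and none lies below 0.

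In the first step, the trimming of broken ends, both called genes encode nucleases. Mre11a encodes the nuclease that makes the first cut and lies on chromosome 9 (14784654 to 14837123, GRCm38, as are all coordinates here). It had 61 week-0 reads and 149 week-3 reads, although the week-3 library was the smaller one. Its FPKM went from 1.31 to 5.25, a log2 ratio of 2.0 with an interval from 1.56 to 2.45. Dna2, the nuclease and helicase of long-range trimming, lies on chromosome 10 (62947026 to 62974185). It had 78 and 129 reads and FPKM of 1.19 and 3.22, for a log2 ratio of 1.44 (1.02 to 1.86). The other 5 genes of this step were not called. They are Rad50, the ATPase partner of Mre11a, Nbn, the subunit that recruits Atm, Rbbp8, the cofactor that switches the nuclease on, the exonuclease Exo1 and the helicase Blm. Their log2 ratios ran from 0.10 for Rbbp8 to 0.66 for Blm. Rbbp8 had 168 week-0 reads and 110 week-3 reads, with FPKM of 6.84 and 7.32, and its interval ran from -0.26 to 0.45.

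The BRCA proteins, which load the recombinase, differed among themselves. Bard1, the obligate partner of Brca1 in a ubiquitin ligase, lies on chromosome 1 (71027498 to 71103146) and had 32 week-0 reads and 40 week-3 reads. Its FPKM were 0.890 and 1.82, a log2 ratio of 1.03 (0.32 to 1.75), just past the limit. It was not called under TMM or median-of-ratios scaling or with at least 100 reads required. Brca1 itself had 82 and 36 reads and FPKM of 1.10 and 0.791, a log2 ratio of -0.48 with an interval from -1.09 to 0.10 that includes 0. Brca2, the loader, and Palb2, which ties it to Brca1, lay between these at 0.56 and 0.60, both with intervals above 0. Brca1 had the smallest log2 ratio of the 44 genes.

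Among the 5 RecA-like paralogs, which stabilise the recombinase filament, only Xrcc3 was called. It lies on chromosome 12 (111803192 to 111813873) and had 71 week-0 reads and 88 week-3 reads. Its FPKM were 2.04 and 4.14 and its log2 ratio was 1.02 (0.55 to 1.49), also just past the limit, and it was not called under those scalings. Rad51d, at 0.96 (0.60 to 1.31), was just short of it. Rad51b had 52 and 24 reads, FPKM of 4.17 and 3.15 and a log2 ratio of -0.41 (-1.17 to 0.32). Rad51c and Xrcc2 were close to the limit of detection, with 14 or 17 reads in each library, and their intervals spanned more than a doubling in either direction around the estimate. Rad51c had 14 reads in both libraries, which gives FPKM of 0.361 and 0.591.

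Among the 4 partners of strand exchange, 3 intervals lay above 0 and 1 included it. Rad54l, a motor protein that opens the invaded duplex, had 158 and 192 reads, FPKM of 2.55 and 5.07 and a log2 ratio of 0.99 (0.68 to 1.304). Its relative Rad54b had 104 and 85 reads, FPKM of 2.41 and 3.22 and the smallest log2 ratio of the group, 0.42 (-0.01 to 0.85). Rad51ap1, which stimulates strand pairing, and Rad52, which anneals single strands, lay between them, with intervals above 0. None of the 4 was called, while their median log2 ratio, 0.87, was above that of the members as a whole. Rad54l shares 15.4% of its exon bases with Lrrc41 on the other strand, and Rad54b shares 35.9% with other genes. A further 6 members share over 10% of their exon bases with other genes, at 10.5% for Fanca, 13.7% for Fancl, 15.0% for Fancf, 16.0% for Fanci and Atrip and 18.6% for Fancc. None of these 8 was called. For Rad54b and Atrip an overlapping gene, Fsbp and Trex1, lies on the same strand, so strand cannot separate their reads. For overlaps on opposite strands, reads can be separated only if the library kept the strand and the authors' counting used it. Neither is given in the sources used here, so the reads of these members may include those of the overlapping genes.

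In the Fanconi core complex, the ubiquitin ligase that answers crosslinks, Fancb was called and the other 7 genes were not. Fancb, the X-linked member (chromosome X, 164980592 to 164997272), had 8 week-0 reads and 20 week-3 reads. Its FPKM were 0.317 and 1.297, and the log2 ratio of 2.03, the largest of the 44, had the widest interval of the called genes, 0.79 to 3.42. Fance, which bridges the core to its substrate, Fancm, the motor that anchors it on DNA, and the scaffold subunit Fancg had log2 ratios of 0.67, 0.60 and 0.40 with intervals above 0. Fancl, the catalytic subunit, Fancf, Fancc and Fanca had intervals that included 0. Fanca was the lowest of the group, with 92 and 49 reads, FPKM of 1.43 and 1.25 and a log2 ratio of -0.20 (-0.73 to 0.32). The substrates of the complex did not differ beyond counting error. Fancd2 had a log2 ratio of -0.29 (-0.74 to 0.15). Fanci, its partner, had 33 and 15 reads, FPKM of 0.750 and 0.558 and a log2 ratio of -0.43 (-1.41 to 0.49). Brip1, the helicase that works with Brca1 downstream of them, was not called either but had an interval above 0, with 57 and 62 reads, FPKM of 1.18 and 2.11 and a log2 ratio of 0.83 (0.29 to 1.38).

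The damage-sensing clamp was the group with the largest share of called genes, 3 of 5, and the intervals of all 5 lay above 0. Rad1, Rad9a and Hus1 form the 9-1-1 ring, Rad17 loads the ring on DNA, and Topbp1 binds the loaded ring and switches on Atr. Rad1 lies on chromosome 15 (10486018 to 10499063) and had 71 week-0 reads and 165 week-3 reads. Its FPKM were 1.03 and 3.91, a log2 ratio of 1.93 (1.52 to 2.35). Rad17 lies on chromosome 13 (100617165 to 100651059) and had 43 and 80 reads, FPKM of 2.29 and 6.96 and a log2 ratio of 1.61 (1.05 to 2.18). Hus1 lies on chromosome 11 (8993137 to 9011191) and had 46 and 68 reads, FPKM of 0.586 and 1.42 and a log2 ratio of 1.27 (0.71 to 1.85). The remaining subunit of the ring had the smallest ratio of the group. Rad9a had 194 and 149 reads, FPKM of 14.9 and 18.7 and a log2 ratio of 0.33 (0.01 to 0.64). Its interval includes 0 under TMM and under median-of-ratios scaling. Topbp1 had a log2 ratio of 0.49 (0.26 to 0.72). The median of the group was 1.27, beside 0.60 for the 44 members. Rad1, Rad17, Mre11a and Xrcc3 belong to the study's DNA damage network, which was built from these libraries. Neither their direction nor the share called in this group is therefore independent evidence.

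None of the 5 checkpoint kinase genes was called. Chek2, the effector kinase downstream of Atm, had 80 and 83 reads, FPKM of 2.81 and 4.78 and a log2 ratio of 0.76 (0.30 to 1.22). Chek1, the effector downstream of Atr, had 108 and 55 reads, FPKM of 2.51 and 2.09 and a log2 ratio of -0.26 (-0.76 to 0.22). The intervals of these effectors do not overlap. Atr, the kinase that answers single-stranded DNA, had 64 and 60 reads, FPKM of 0.368 and 0.564 and a log2 ratio of 0.62 (0.08 to 1.15). Its partner Atrip had 16 and 15 reads and FPKM of 0.347 and 0.531, with the same log2 ratio of 0.62 and an interval from -0.50 to 1.73. Atm, the kinase that answers double-strand breaks, had a log2 ratio of 0.04 (-0.46 to 0.52).

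RPA, the trimer that covers single-stranded DNA, gave the most reads of any group, and the interval of Rpa2 was the narrowest of the 44. Rpa2 had 833 week-0 reads and 800 week-3 reads, FPKM of 31.8 and 49.97 and a log2 ratio of 0.65 (0.51 to 0.79). Rpa3 had 332 and 281 reads, FPKM of 38.6 and 53.5 and a log2 ratio of 0.47 (0.23 to 0.70). Rpa1, the largest subunit, had 341 and 182 reads, FPKM of 7.47 and 6.52 and a log2 ratio of -0.20 (-0.46 to 0.07). The intervals of Rpa2 and Rpa3 lie above that of Rpa1.

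The order of levels was much the same in both libraries. Rpa3, Rpa2 and Rad9a had the highest FPKM averaged over both libraries and Atrip, Atr and Rad51c the lowest. The rank correlation between the libraries over the 44 genes was 0.855, as a description of genes that share the same 2 libraries. The rank correlation of the change with the level of a gene was 0.00345 and that with its length 0.0229. The median FPKM of the members was 2.08 at week-0 and 3.17 at week-3, beside 4.41 and 4.28 for the 12082 compared genes with reads in both libraries, so the members' median was the lower one at both time points. A comparison of levels between genes rests on the exon length behind the FPKM. For 30 of the 44 members, the length implied by the deposited FPKM equals, within 1 base, the sum of every distinct exon of every isoform in GENCODE M21, with shared bases counted again for each exon. For the 35 members with the same coordinates there, it was 1.0 to 1.99 times the length of the merged exons, with a median of 1.29. Xrcc3 stood at 1.99 and Hus1 at 1.92, so the FPKM of these genes lie below the level per merged base by that factor. Per kilobase of merged exons, Rpa2 went from 43.8 to 68.8 and Rpa3 from 46.0 to 63.6, so Rpa3 was the higher of the pair at week-0 with either length, while at week-3 their order changes with the length used. The same length was used for both libraries, and the FPKM ratio equals the ratio of reads per total within 0.0559%, so the changes are not affected.

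**Figure D2:**
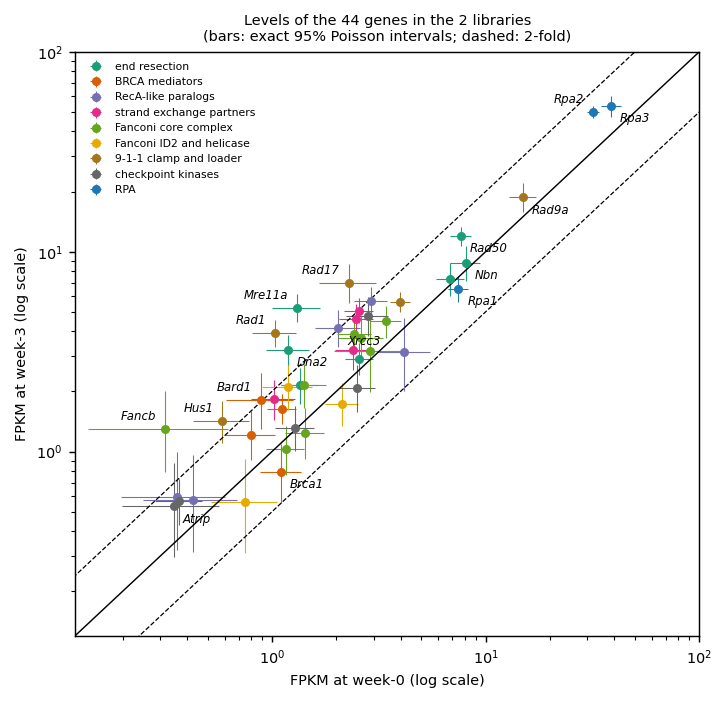
FPKM at week-0 (x axis) against week-3 (y axis), both on log scales, for the 44 genes coloured by role, with exact 95% Poisson intervals of the counts. Rpa3, Rpa2 and Rad9a had the highest FPKM averaged over both libraries and Atrip, Atr and Rad51c the lowest. The 8 called genes lie on or above the upper 2-fold line.

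Subunits of 1 complex can be compared with each other inside each library, and the difference of their log2 ratios does not depend on how the libraries are scaled. The complexes were chosen after the values of single genes had been seen. Of 20 pairs of subunits in 9 complexes, the 95% interval of the difference excluded 0 in 9, and an interval widened to 99.75% for the 20 comparisons excluded 0 in 7. In the MRN complex, Mre11a differed from Nbn by 1.87 (1.28 to 2.47) and from Rad50 by 1.35 (0.85 to 1.86). Nbn stood 6.14 times as high as Mre11a in FPKM at week-0 and 1.68 times as high at week-3. In the 9-1-1 ring, Rad1 differed from Rad9a by 1.60 (1.07 to 2.13), and the FPKM of Rad9a over Rad1 went from 14.5 to 4.79. Rad9a shares 9.53% of its exon bases with Ppp1ca on the other strand, and its coordinates differ from those of GENCODE M21. The deposited length was 2046 bases for Rad9a and 10851 for Rad1, the latter 1.47 times its merged exons. The part of these in the values of this pair was not tested. Other pairs of these complexes lay further apart in FPKM at week-3. Hus1 over Rad1 went from 0.569 to 0.362, while the interval of their difference included 0. Nbn over Rad50 went from 1.06 to 0.735, with a difference of 0.52 (0.08 to 0.97) whose widened interval included 0. Bard1 and Brca1 differed by 1.51 (0.57 to 2.45), and Brca1 over Bard1 went from 1.24 at week-0 to 0.435 at week-3. Their FPKM intervals overlapped at week-0, at 0.877 to 1.37 for Brca1 and 0.609 to 1.26 for Bard1, so their week-0 order was not resolved. At week-3 the interval of Bard1, 1.30 to 2.48, lay above that of Brca1, 0.554 to 1.10. Rad51d and Rad51b differed by 1.36 (0.54 to 2.21). Within RPA, Rpa2 and Rpa3 differed from Rpa1 by 0.85 (0.55 to 1.15) and 0.67 (0.31 to 1.02). The difference of Rad1 and Hus1, 0.65, had an interval from -0.06 to 1.36. Palb2 and Brca2 differed by 0.04 (-0.63 to 0.71), Fancd2 and Fanci by 0.14 (-0.90 to 1.23) and Atr and Atrip by 0, with an interval from -1.25 to 1.25. These 3 intervals allow a difference of over 1.5 times and do not show that the partners changed alike.

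**Figure D3:**
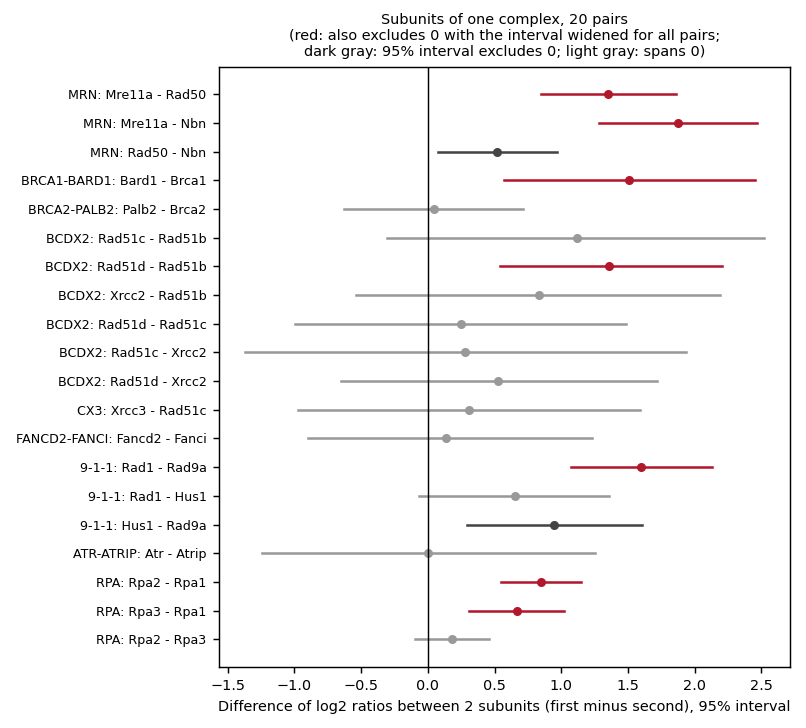
Difference of the log2 ratios of 2 subunits of a complex (x axis, first minus second) for 20 pairs, with 95% counting intervals. The 7 pairs in red, among them Mre11a with Nbn, Rad1 with Rad9a and Bard1 with Brca1, exclude 0 also when the interval is widened for all pairs.

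Promoter sequence was read from the RefSeq table of GRCm38.p6, which held 35 of the 44 members. The bases shown are those of 3 called genes with no protein-coding neighbour that starts within 1000 bases on the other strand, so that the stretch faces 1 gene only. They run 5′ to 3′ on the strand of the gene and end before the first base of the deposited gene. Capitals mark a match to the E2F letters (TTTGGCGC, TTTCCCGC, TTTCGCGC or TTTGCCGC) or to the NRF1 letters (GCATGCGC), on either strand. Bard1 is shown at chr1:71103147-71103222 (minus strand), Dna2 at chr10:62946779-62947025 (plus strand) and Hus1 at chr11:9011192-9011441 (minus strand).
Bard1: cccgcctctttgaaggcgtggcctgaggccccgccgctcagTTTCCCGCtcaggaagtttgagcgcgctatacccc
Dna2: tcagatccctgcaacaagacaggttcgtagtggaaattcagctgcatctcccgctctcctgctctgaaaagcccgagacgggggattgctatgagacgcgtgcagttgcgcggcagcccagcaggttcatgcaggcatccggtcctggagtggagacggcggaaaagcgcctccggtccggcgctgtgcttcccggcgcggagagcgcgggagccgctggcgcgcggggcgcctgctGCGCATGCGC
Hus1: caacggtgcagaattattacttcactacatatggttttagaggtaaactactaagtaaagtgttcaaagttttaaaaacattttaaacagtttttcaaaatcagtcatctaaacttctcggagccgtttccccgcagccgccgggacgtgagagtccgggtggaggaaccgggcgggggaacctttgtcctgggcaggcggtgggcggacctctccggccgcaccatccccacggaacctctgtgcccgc
Bard1 holds 1 E2F match and Dna2 a pair of overlapping NRF1 matches next to the start, while Hus1 holds neither. Over the 250 bases ahead of the RefSeq start, an E2F match was found in 5 of 35 members (Bard1, Brca2, Fancg, Topbp1 and Chek2), or 14.3%, beside 3.65% of the 8844 genes compared that have an entry. An NRF1 match was found in 5 (Dna2, Fancm, Fanci, Atm and Rpa2), or 14.3%, beside 4.70%. The CHR letters (TTTGAA) were in 2 members, Bard1 and Hus1, or 5.71%, beside 10.5%, and the letters CCAAT in 20, or 57.1%, beside 36.5%. Of the 8 called members, 1 held an E2F match and 1 an NRF1 match, and of the other 27 members 4 and 4 did. The CHR letters were in 2 of the 8 called members and 0 of the other 27, and CCAAT in 3 of the 8 (37.5%) and 17 of the 27 (63.0%). The letters were chosen after the changes had been seen, and a match is a description of the sequence, not of binding.

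The members were set beside other genes of the same and neighbouring pathways. Of 55 further genes of recombination, crosslink repair and damage signalling, 5 were called higher, or 9.09%, and 3 lower, with a median log2 ratio of 0.26. Those with the largest ratios were Helq, a helicase of crosslink repair (22 and 45 reads, log2 1.74), Rnf8, a ubiquitin ligase at breaks (24 and 33 reads, log2 1.17), and Hells, a chromatin remodeller (196 and 254 reads, log2 1.08). Rnf168 and Faap24, which the rule for named genes does not cover and which are named after their values were seen, were the other two. Called lower were Parpbp, an inhibitor of recombination (46 and 11 reads, log2 -1.35), Trp53bp1, which protects ends from trimming (417 and 112 reads, log2 -1.19), and Wdr48, a cofactor of the deubiquitinase of Fancd2 (423 and 126 reads, log2 -1.04). Of 44 compared genes of excision, mismatch and end-joining repair, 3 were called higher and 3 lower, with a median of 0.17. Of 28 genes of replication licensing and S phase, 4 were higher and 1 lower (median 0.19), and of 26 mitosis genes 1 was higher and none lower (median 0.37). The members' median, 0.60, was above each of these, as was their share of called genes, 18.2%. The members and these lists were chosen with earlier results of these data known, so this is a description only. The deposited tables also carry KEGG terms. For homologous recombination, 25 of 26 listed genes were compared, the list holds 15 members, 3 genes (12%) were called higher and none lower, and the median log2 ratio was 0.47. For the Fanconi anemia pathway, 47 of 49 were compared and the list holds 18 members. Of these 47 genes, 4 (8.51%) were called higher and 2 lower, with a median of 0.20, and the summed FPKM of the list at week-3 was 0.799 times that at week-0. Both KEGG lists thus had a smaller share called higher than the 44 members, and that of the Fanconi list was below the 10.3% of all genes.

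**Figure D4:**
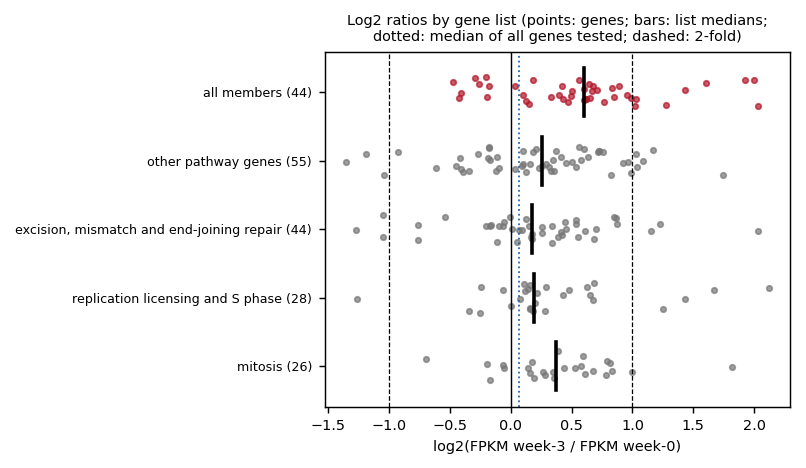
Log2 ratio at week-3 over week-0 (x axis) of each compared gene in 5 lists, with bars at the list medians and a dotted line at the median of all genes. The members' median of 0.60 lies to the right of those of the other 4 lists, 0.17 to 0.37.

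The libraries also differed in markers of other cells and in early response genes, which matters since, in bulk RNA, fewer cells of a type and less RNA per cell cannot be told apart. Of 8 LSK markers, Kit had 1391 and 580 reads and Ly6a, the gene of Sca1, 434 and 199, and the median log2 ratio of the list was -0.58. All 7 mast cell markers were called higher, their sum going from 86.2 to 3731 reads per 1000000, with Mcpt4 and Tpsb2 at 0 reads at week-0. Of 6 granulocyte markers 5 were higher, and their sum went from 208.0 to 894 reads per 1000000, while Ly6g had 5 reads in both libraries. Of 6 erythroid markers 5 were lower, with a sum of 1398 reads per 1000000 at week-0 and 88.2 at week-3. Of 4 plasma cell markers 3 were lower, and their sum went from 866 to 29.6 reads per 1000000. Of 5 B cell markers 2 had enough reads, and 1 of these was lower. Of 4 megakaryocyte markers 1 was called lower, while 2 intervals lay below 0 and 1, that of Itga2b (log2 0.93), above it. No monocyte or macrophage marker was called, but of 3 with enough reads 2 had intervals above 0, Csf1r (log2 0.92) and Cd68 (0.78). The 5 T cell markers had 17 week-0 reads and 4 week-3 reads in all. The 23 immediate-early genes made up 4.67% and then 1.29% of reads, and 21 were called lower. The part of these differences in the members' changes was not tested. When the 73 genes of these lists were left out of the totals, 6 members were called higher, without Bard1 and Xrcc3, beside 9.26% of all genes. The median log2 ratio of the members was then 0.55 and that of all genes 0.02.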

How the data were processed

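LSKs were sorted by FACS, and cDNA was made with the SMARTer Ultra Low Input kit and sequenced with paired ends. After trimming, the authors aligned the reads to GRCm38 with TopHat2 2.0.9. The deposited values of each gene are raw counts, which are whole numbers, and FPKM, which the authors scaled by exon length and by the reads of the library. The counting tool, its use of strand and the annotation release are not given in the sources used here.

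The tables of the 2 libraries were joined by Ensembl identifier, and genes with at least 20 reads over both libraries were compared. The ratio was computed from the reads of a gene over the total of each library. For genes with reads in both libraries it equals the ratio of the deposited FPKM within 0.0559%. No pseudocount was added, but a count of 0 was set to 3 reads, so that such a ratio is a bound. Every member had reads in both libraries. With 1 library per time point there is no test between conditions. The 95% intervals come from the exact Clopper-Pearson interval of the week-3 share of a gene's reads. The work used Python 3.11.15 with scipy 1.17.1, pandas 2.3.3, numpy 2.4.6 and matplotlib 3.10.9, and edgeR 4.0.16 and DESeq2 1.42.0 in R 4.3.3 for other scalings and for exact tests at assumed variation. The intervals and the calls were tested on simulated Poisson counts. These hold no spread between mice and no PCR copies, so the simulation cannot speak of either.

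The 44 members and the other lists were chosen with earlier results of these data known, and the genes of the study's network come from these libraries. Reads and FPKM are given for called members, for Rad1, Rad17, Mre11a and Xrcc3, for the 3 highest and 3 lowest members by level, and for the highest and lowest log2 ratio of each role group. Of other pathway genes with at least 50 reads, the 3 largest and 3 smallest log2 ratios are given. Coordinates are those of the tables. Strand, exons and neighbouring genes come from GENCODE M21.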

Additional observations from a re-analysis of the deposited data

How the results depend on the processing

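No paired analysis was possible because each time point is 1 library, and no replicate could be left out for the same reason. The number of members called higher, 8, went to 21 with limits of 1.5 and 0.67 in place of 2 and 0.5, where 21.4% of all genes were called, and to 0 in edgeR's exact test at an assumed biological coefficient of variation of 0.4. It was 6 under TMM (8.22% of all genes) and under median-of-ratios scaling (8.51%), where Bard1 and Xrcc3 fell below 2 times. Of 36 members with at least 100 reads, 6 were called (7.51% of all genes so filtered). The number was 8 when reads in both libraries replaced the limit of 20 reads (9.53% of 15377 genes). With no interval (10.6%) and at an assumed variation of 0.1 (9.42%) it was 8 too. It was also 8 without the 8 members that share over 10% of their exon bases with another gene, none of which was called. No member was called lower under any of these. TMM moved every log2 ratio by -0.11, so that the median of the members was 0.49 and that of all genes -0.04. Members with the interval below 1 were then 2 (Brca1 and Rpa1), and 1 (Rpa1) under median-of-ratios scaling, in place of 0. Members with the interval above 1 were 21 under TMM (28.6% of all genes) and 22 under median-of-ratios scaling (29.6%), in place of 26. The intervals of Rad9a, Fancg, Palb2 and Atr included 0 under both scalings, and that of Fancm under TMM. Atm changed sign under both scalings and Rbbp8 under TMM. With a pseudocount of 1 on the FPKM, which understates the change of low genes, the median of the members was 0.35 and 5 of the 8 called genes were below 2 times. The depth limits Fancb, Rad51c, Xrcc2, Fanci and Atrip most, which had under 20 reads in at least 1 library. The totals without marker and early response genes, the omission of overlapping genes and the comparison of subunits were added after seeing the data.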

Other observations

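Many of these genes start next to another gene. Of the 44 members, 18, or 40.9%, have a protein-coding neighbour on the other strand that starts within 1000 bases in GENCODE M21, beside 17.1% of the 11085 compared protein-coding genes. Brix1, a factor of ribosome assembly, starts 71 bases from Rad1 and had 728 and 588 reads, a log2 ratio of 0.40, while Rad1 stood at 1.93. Ankrd49 starts 202 bases from Mre11a and had 58 and 52 reads, a log2 ratio of 0.55, while Mre11a stood at 2.0. In other pairs both genes were called higher. Ak6, an adenylate kinase that starts 72 bases from Rad17, had 135 and 170 reads and a log2 ratio of 1.04, and Zfyve21, 297 bases from Xrcc3, had 41 and 91 reads and a log2 ratio of 1.86. Smyd4, 109 bases from Rpa1, had 15 and 59 reads and a log2 ratio of 2.69, while Rpa1 stood at -0.20. Of the 16 neighbours with enough reads, 4 were called higher and none lower, beside 10.3% and 14.6% of all genes compared. Their median log2 ratio was 0.49, beside 0.68 for the 16 members they adjoin. Ankrd49 and Ak6 share 154 and 73 exon bases with Mre11a and Rad17, so the reads of these pairs may not be fully separate. The neighbours were looked up after the members' values had been seen.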
